A study of Mus musculus with 6 samples.

Results

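The complement genes examined here were *C1qa*, *C1qb*, *C1qc*, *C1ra*, *C3*, *C4b*, *C3ar1* and *C5ar1*, chosen by symbol from a table of 53746 genes. All 8 were in the table. Cerebellar RNA came from 3 N153SLSL/LSLPcp2-cre mice (Pcp2-cre) and 3 N153SLSL/LSL mice (controls), all 2 months old. By the labels, mice 1 and 2 of either genotype were male and mouse 3 was female. Both genotypes carry the *Sting1* N153S knockin allele on both chromosomes behind a LoxP-Stop-LoxP cassette. *Pcp2-cre* removes the cassette in Purkinje cells, so the constitutively active STING mutant is made in these neurons and is silent in controls. The mice were perfused with cold PBS, and each library holds poly A-enriched RNA of a whole cerebellum. Fewer cells of a type and less RNA per cell cannot be told apart in such libraries.

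Complement is a cascade of secreted proteins that marks surfaces for removal by phagocytes. In the classical pathway C1q, a protein built from A, B and C chains, binds a surface and activates the proteases C1r and C1s, which cleave C4 and C2. The resulting enzyme cleaves C3, whose fragments coat the surface and signal to cells through receptors such as C3aR. In the brain, microglia are the main source of C1q, and C1q and C3 are known for tagging synapses and neuronal debris.

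Total counts lay between 6733178 and 10178218 per mouse, and a floor of 3 counts came to 0.297 to 0.447 CPM, the unit of counts scaled to TMM-normalized library sizes. This floor covers counting error only. The genotypes were compared with edgeR's quasi-likelihood test over the 16961 genes that passed a filter on low counts. Calls follow the study's thresholds, an adjusted p (Benjamini-Hochberg) up to 0.05 together with a log2 fold change (log2FC) of 0.5 or more in size. Fitted log2FCs carry their standard error (SE), and adjusted p-values marked edgeR come from this test. The engineered gene *Sting1* had 23.2, 27.2 and 26.2 CPM in control mice 1, 2 and 3 and 44.4, 34.2 and 35.5 CPM in Pcp2-cre mice 1, 2 and 3. Purkinje cell genes, which mark the cerebellum, were found in all 6 libraries, their sum lying at 7830 to 8576 CPM in controls and 4330 to 4823 CPM in Pcp2-cre mice. Control mice 1 and 2 stood apart in choroid plexus genes, whose mean log2 CPM was 4.58 and 5.10 there against 0.847 in control mouse 3 and 0.517 to 1.74 in Pcp2-cre mice. Nothing in the labels says how the mice were assigned to litters or cages, so p-values measure the spread between these 6 mice.

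Transcripts of the C1q chains, C4b, C3 and the C3a receptor were higher in Pcp2-cre than in control cerebella, by about 4- to 9-fold in the fitted values. *C1ra* and *C5ar1* were near the limit of detection and gave no call. Of the 8 genes, 6 were abundant enough to be tested and all 6 were called higher, against 1.37% of all tested genes called higher and 3.17% called in either direction. For *C3* and *C3ar1* no control mouse reached the filter's level of 1.27 CPM, so these 2 passed through the Pcp2-cre mice alone and had to differ in order to be tested. *C1qa*, *C1qb*, *C1qc* and *C4b* exceeded that level in all 6 mice. In each of the 6 called genes every Pcp2-cre mouse lay above every control, which 10.8% of tested genes showed, and 11.4% showed the opposite.

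**Figure D1:**
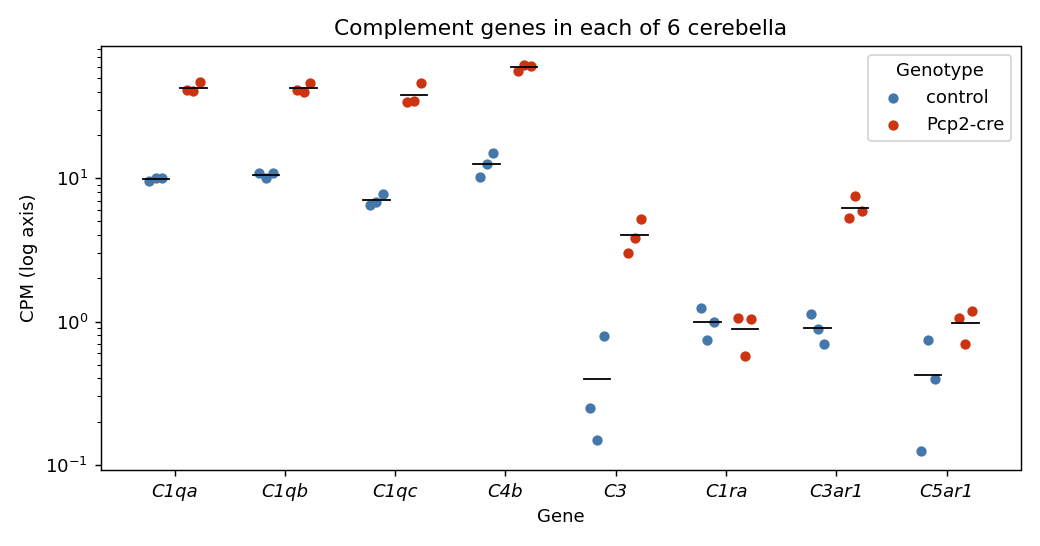
CPM of the 8 complement genes on a log axis, with each point 1 mouse and each bar the mean of 3 mice of a genotype. The genotypes do not overlap for *C1qa*, *C1qb*, *C1qc*, *C4b*, *C3* and *C3ar1*, and they overlap for *C1ra* and *C5ar1*.

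*C1qa*, *C1qb* and *C1qc* encode the chains of C1q, the recognition protein of the classical pathway. In GRCm39 they lie side by side on the reverse strand of chromosome 4, *C1qb* from 136606009 to 136613511, *C1qc* from 136616466 to 136620376 and *C1qa* from 136623223 to 136626161. The gaps between them are 2954 and 2846 bp. No window of 50 bases of the *C1qa* or *C1qb* transcript occurs in *C1qc*. The exons of *C1qb* and *C1qc* overlap those of *Gm69251* on the opposite strand for 61 and 247 bp.

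*C1qa* (ENSMUSG00000036887) was counted 77, 68 and 102 times in control mice 1, 2 and 3 and 313, 350 and 316 times in Pcp2-cre mice 1, 2 and 3. These came to 9.61, 10.1 and 10.1 CPM against 41.2, 40.4 and 46.8 CPM. The control mice were nearly level, and the lowest Pcp2-cre mouse lay far above the highest control. The log2FC was 2.10 ± 0.0949 (SE) with a 95% confidence interval of 1.90 to 2.30 (edgeR adjusted p = 4.64e-12). *C1qb* (ENSMUSG00000036905) had 88, 67 and 110 counts in controls and 314, 349 and 312 counts in Pcp2-cre mice. Its CPM went from 10.6 ± 0.557 to 42.6 ± 3.13 (SD, n = 3 mice each), a log2FC of 1.99 ± 0.0931 (SE) with a 95% confidence interval of 1.80 to 2.19 (edgeR adjusted p = 7.11e-12). *C1qb* thus had the smallest fitted change of the 6 called genes, with an interval that overlaps that of *C1qa*.

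*C1qc* (ENSMUSG00000036896) had 52, 46 and 79 counts in controls and 259, 298 and 312 counts in Pcp2-cre mice. Its CPM was 6.49, 6.85 and 7.83 in controls and 34.1, 34.4 and 46.2 in Pcp2-cre mice. Pcp2-cre mouse 3 stood above the other 2 Pcp2-cre mice. As it was the only female of its genotype, sex cannot be told apart from the mouse. The log2FC was 2.41 ± 0.132 (SE) with a 95% confidence interval of 2.14 to 2.69 (edgeR adjusted p = 6.44e-11).

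The chains were then compared with each other. FPKM, the deposited value scaled to exon length, allows levels to be set side by side. It does not follow the counts at a fixed ratio. From control mouse 1 to control mouse 2, *C1qa* rose from 9.61 to 10.1 CPM but fell from 7.51 to 7.05 FPKM. The FPKM summed over the chains was 20.4, 19.4 and 19.3 in controls and 92.4, 92.4 and 105.7 in Pcp2-cre mice. Of this sum *C1qc* held 24.6%, 22.7% and 24.5% in controls and 26.8%, 27.9% and 29.1% in Pcp2-cre mice, while *C1qb* held 38.3% to 40.9% in controls and 33.7% to 34.6% in Pcp2-cre mice. The share of *C1qa* was 36.4% to 37.2% in controls and 37.3% to 38.5% in Pcp2-cre mice, so the ranges nearly touched.

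Raw counts gave the same direction for *C1qc* relative to *C1qa*, but not for the share of *C1qa*. That share of the summed C1q counts was 35.1% to 37.6% in controls and 33.6% to 35.3% in Pcp2-cre mice, with overlap. The count ratio of *C1qc* to *C1qa* was 0.675, 0.676 and 0.774 in controls and 0.827, 0.851 and 0.987 in Pcp2-cre mice, without overlap. The ratio of *C1qc* to *C1qb* was 0.591, 0.687 and 0.718 in controls and 0.825, 0.854 and 1 in Pcp2-cre mice. The share of summed C1q counts held by *C1qb* was 37.0% to 40.6% in controls and 33.2% to 35.4% in Pcp2-cre mice, without overlap, as in FPKM. Only against *C1qa* alone did *C1qb* overlap between genotypes in counts, at ratios of 1.14, 0.985 and 1.08 against 1.003, 0.997 and 0.987. These ratios were read after the chains' values were known, and no p is given for them.

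**Figure D2:**
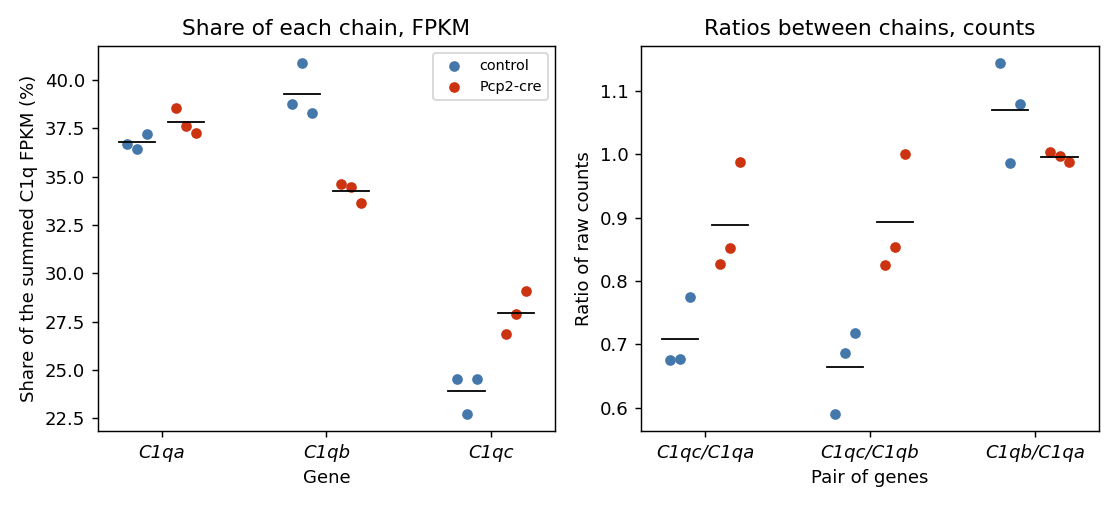
Left, share of the summed C1q FPKM held by each chain gene in percent. Right, ratio of raw counts between pairs of chain genes. Each point is 1 mouse and each bar the mean of 3 mice. *C1qc* holds a larger share in every Pcp2-cre mouse than in any control, and the *C1qb* to *C1qa* count ratio overlaps between genotypes.

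Promoter sequences are given for *C1qb* and *C1qc* because these neighbours changed together. They are the 250 bases before the RefSeq start in the GRCm38.p6 build, read 5′ to 3′ on the reverse strand, chr4:136886201-136886450 and chr4:136892915-136893164. Capitals mark matches to GAGGAA, a core bound by PU.1, a transcription factor of the myeloid lineage, or to an NF-kB pattern, GGGA and CC with any 4 bases between them, on either strand.
C1qb: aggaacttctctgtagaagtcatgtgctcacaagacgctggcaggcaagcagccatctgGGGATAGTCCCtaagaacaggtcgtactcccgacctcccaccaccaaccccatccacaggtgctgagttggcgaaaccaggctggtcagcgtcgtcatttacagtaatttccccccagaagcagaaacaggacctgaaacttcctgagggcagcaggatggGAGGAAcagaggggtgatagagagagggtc
C1qc: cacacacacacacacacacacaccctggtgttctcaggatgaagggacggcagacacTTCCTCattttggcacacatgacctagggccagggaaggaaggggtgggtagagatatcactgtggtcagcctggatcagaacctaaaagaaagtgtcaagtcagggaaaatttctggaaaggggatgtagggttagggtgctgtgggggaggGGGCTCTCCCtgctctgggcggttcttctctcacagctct
In *C1qb* the GAGGAA match began 30 bases before the start and a pair of overlapping NF-kB matches, one on each strand, began 191 and 190 bases before it. In *C1qc* the corresponding matches began 193 and 40 bases before the start. The table held promoters for 6 of the 8 genes, all but *C1qa* and *C4b*. GAGGAA was present in 2 of these 6 and in 23.3% of all 32851 promoters of the same length, and the NF-kB pattern in 3 of the 6 and in 17.6%. The pattern of interferon-stimulated response elements, GAAA repeated after any 2 bases, and TTCNNNGAA, a pattern bound by STAT proteins, were found in none of the 6, against 2.98% and 7.02% of all promoters. A match of letters is not a binding site.

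*C4b* encodes C4, which is cleaved by C1s and deposited on surfaces, and astrocytes and oligodendrocytes are its known sources in brain. The gene (ENSMUSG00000073418) lies on the reverse strand of chromosome 17 of GRCm39 from 34947354 to 34962912. It had 82, 84 and 151 counts in controls and 424, 534 and 414 counts in Pcp2-cre mice, or 10.2, 12.5 and 14.96 against 55.8, 61.6 and 61.3 CPM. The Pcp2-cre mice were close to each other and the controls were more spread. The log2FC was 2.23 ± 0.0987 (SE) with a 95% confidence interval of 2.02 to 2.43 (edgeR adjusted p = 4.48e-12).

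Reads of *C4b* can be shared with its paralog *C4a*, which lies 65156 bp away. Of the 150-base windows along the longest *C4b* transcript, the read length of the study, 8.04% occur unchanged in *C4a*, and 33.7% of 50-base windows do. *C4a* had 12, 14 and 16 counts in controls and 25, 12 and 15 counts in Pcp2-cre mice, and the genotypes overlapped. Its log2FC of 0.42 did not pass the test (SE 0.322, edgeR adjusted p = 0.573). *C4b* exons also overlap *Gm65055* on the opposite strand for 366 bp.

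*C3* encodes the central component on which all complement pathways meet. It lies on the reverse strand of chromosome 17 from 57510964 to 57535155 and its exons overlap those of *Gm65552* on the opposite strand for 334 bp. *C3* (ENSMUSG00000024164) was counted 2, 1 and 8 times in control mice 1, 2 and 3 and 23, 33 and 35 times in Pcp2-cre mice. Control mice 1 and 2 were under the floor of 3 counts, and every Pcp2-cre mouse was above it. Mean CPM was 0.397 ± 0.346 in controls and 4.01 ± 1.09 in Pcp2-cre mice (SD over 3 mice), which gave a log2FC of 3.12 ± 0.396 (SE) with a 95% confidence interval of 2.30 to 3.95 (edgeR adjusted p = 1.08e-05). Without control mouse 3 the log2FC was 4.17, so its size rests on few counts. When the model also held the choroid plexus score of each mouse, the value was 2.86.

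The promoter of *C3* is given because it held more matches to the NF-kB pattern than any of the other 5 promoters at hand. It covers chr17:57228137-57228386 of GRCm38.p6 on the reverse strand, with the matches in capitals.
C3: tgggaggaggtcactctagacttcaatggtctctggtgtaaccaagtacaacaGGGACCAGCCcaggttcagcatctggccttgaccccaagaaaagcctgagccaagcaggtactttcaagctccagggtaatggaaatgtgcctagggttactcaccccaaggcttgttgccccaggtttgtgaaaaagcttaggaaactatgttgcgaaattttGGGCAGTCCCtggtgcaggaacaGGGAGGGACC
The matches began 197, 33 and 10 bases before the start.

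*C1ra* encodes C1r, the protease that C1q activates. The gene (ENSMUSG00000055172), on the forward strand of chromosome 6 from 124489364 to 124500402, had 10, 5 and 10 counts in controls and 8, 5 and 7 counts in Pcp2-cre mice, which did not pass the filter. Its mean CPM was 0.994 ± 0.252 in controls and 0.889 ± 0.270 in Pcp2-cre mice (SD over 3 mice), with overlap between genotypes (two-sided exact permutation test on log2 CPM, p = 0.70). Without the filter its log2FC was -0.22 (edgeR adjusted p = 0.875). In FPKM the means stood in the other order, 0.220 ± 0.0475 and 0.261 ± 0.0190 (SD, n = 3 mice each), also with overlap. Of 150-base windows of *C1ra*, 26.3% also occur in its paralog *C1rb*, which had 1 to 3 counts in each mouse. A difference in *C1ra* was not detectable at this depth.

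*C3ar1* and *C5ar1* encode the receptors for the C3a and C5a fragments, which are found on myeloid cells. *C3ar1* (ENSMUSG00000040552) lies on the reverse strand of chromosome 6 from 122823393 to 122833122 and overlaps no exon of another gene. It had 9, 6 and 7 counts in controls and 40, 65 and 40 counts in Pcp2-cre mice. Its CPM was 1.12, 0.893 and 0.694 in controls and 5.27, 7.50 and 5.92 in Pcp2-cre mice, and the highest control was well below the lowest Pcp2-cre mouse. The log2FC was 2.80 ± 0.272 (SE) with a 95% confidence interval of 2.23 to 3.37 (edgeR adjusted p = 2.63e-07).

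*C5ar1* (ENSMUSG00000049130), on chromosome 7 from 15980668 to 15993465, had 1, 5 and 4 counts in controls and 8, 6 and 8 counts in Pcp2-cre mice. In CPM it was 0.125, 0.744 and 0.396 in controls and 1.05, 0.693 and 1.18 in Pcp2-cre mice, so Pcp2-cre mouse 2 lay below control mouse 2 (two-sided exact permutation test on log2 CPM, p = 0.20). Without the filter the log2FC was 1.21 (edgeR adjusted p = 0.252). In FPKM the groups did not overlap, at 0.0575, 0.282 and 0.231 in controls and 0.454, 0.311 and 0.308 in Pcp2-cre mice (exact permutation p = 0.10, the smallest that 3 mice against 3 allow). The difference in *C5ar1* therefore depended on the scale and rests on at most 8 counts per mouse. The neighbouring receptor gene *C5ar2* had 1 to 6 counts in each mouse.

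Levels of different genes were ordered by FPKM. In controls the order was *C1qb* (7.74 FPKM), *C1qa* (7.24), *C1qc* (4.72), *C4b* (1.97), *C1ra* (0.220), *C3ar1* (0.195), *C5ar1* (0.190) and *C3* (0.0962). *C1qb* and *C1qa* overlapped between mice, as did the neighbours from *C1ra* down to *C3*. In Pcp2-cre mice the order was *C1qa* (36.6 FPKM), *C1qb* (33.1), *C1qc* (27.1), *C4b* (10.2), *C3ar1* (1.11), *C3* (0.602), *C5ar1* (0.358) and *C1ra* (0.261). There the mice overlapped only between *C1qa* and *C1qb*. Within each mouse the log2 ratio of *C1qb* to *C1qa* FPKM was 0.08, 0.17 and 0.04 in controls and -0.16, -0.13 and -0.15 in Pcp2-cre mice. The ratio of their counts overlapped between genotypes, as given above. The FPKM of C1q summed over its chains exceeded that of *C3* by 164- to 243-fold in controls and by 140- to 191-fold in Pcp2-cre mice, ranges that overlap. The size of the control ratios is uncertain. In controls *C3* had 2, 1 and 8 counts but 0.0840, 0.118 and 0.0862 FPKM, which did not follow the counts.

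The rest of the complement system was examined with 56 other genes listed by role, of which 27 passed the filter. Of these, 3 were called higher and 0 lower with edgeR, beside 1.37% and 1.79% of all tested genes. DESeq2 also called 3 and 0, and at an unadjusted p under 0.05 in edgeR 7 were higher and 1 lower, where 8.36% of all tested genes were higher and 9.67% lower. The median log2FC was 0.12 over these 27 genes and 0.00 over all tested genes. The 3 called genes were *Itgam*, *Itgax* and *Itgb2*, which encode the subunits of complement receptors CR3 and CR4. These integrins are carried by microglia and other leukocytes, and *Itgam* is also in the list of pan-microglial genes.

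*Itgb2*, the shared subunit, had 12, 12 and 15 counts in controls and 74, 83 and 64 counts in Pcp2-cre mice. Its log2FC was 2.60 (SE 0.202, edgeR adjusted p = 8.64e-09). *Itgam*, the CR3 subunit, had 8, 6 and 20 counts in controls and 32, 30 and 30 counts in Pcp2-cre mice, a log2FC of 1.55 (SE 0.286, edgeR adjusted p = 9.39e-04). The gene was under the filter's level in control mice 1 and 2, at 0.998 and 0.893 CPM, so it could not have passed without the Pcp2-cre mice. Its exons share 3450 bp with *Gm49368* on the same strand. *Itgax*, the CR4 subunit, had 3, 1 and 4 counts in controls and 59, 79 and 66 counts in Pcp2-cre mice. Control mice 1 and 2 were at or under the floor of 3 counts, which leaves the size of its log2FC of 4.72 uncertain. No control mouse reached the filter's level, so *Itgax*, like *C3* and *C3ar1*, had to differ in order to be tested. The other tested receptor genes, *Cd93*, *C1qbp*, *Lrp1* and *Calr*, had log2FCs of 0.35, 0.16, -0.04 and -0.09, and none passed the test.

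Among initiation genes, 5 of 15 were tested and 0 were called by edgeR or DESeq2, with 0 at an unadjusted p under 0.05. *Masp1* and *Masp2* act in the lectin pathway. *Masp2*, *Colec12* and *Masp1* had log2FCs of 0.01, 0.15 and 0.13. Their 95% confidence intervals ran from -0.10 to 0.12, from -0.04 to 0.33 and from -0.15 to 0.41. Of the 4288 exonic bp of *Masp2*, 2585 bp are shared with *Tardbp* on the opposite strand. In controls *Masp2* had a mean of 96.3 CPM but 0.505 FPKM, where *Masp1* had 12.6 CPM and 4.49 FPKM. The counts of *Masp2* may thus belong largely to *Tardbp*, and its log2FC and interval cannot be taken as a measure of *Masp2*. *C2*, the partner of C4 in the C3-cleaving enzyme, had 24, 17 and 34 counts in controls and 16, 29 and 20 counts in Pcp2-cre mice, with a log2FC of -0.09 (95% confidence interval, -0.60 to 0.42). Its exons share 1656 bp with *Gm20547* on the same strand. *C1s1*, which encodes the protease next to C1r, had 16, 7 and 12 counts against 9, 20 and 3, and did not pass the filter.

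Of the alternative pathway, *Cfp*, which encodes the stabilizing protein properdin, was the only gene of 3 tested, at 38.7 ± 3.23 and 42.1 ± 4.66 CPM (SD, n = 3 mice each), a log2FC of 0.12 (edgeR adjusted p = 0.526). *Cfd*, which encodes factor D, had 0 counts in all mice. *Cfb*, which encodes factor B, had 0 to 3 counts, but 2246 of its 3420 exonic bp are shared with *Gm20547* on the same strand, so its counts do not measure its level. In FPKM *Cfb* was 0.516, 0.697 and 0.758 in controls and 0.371, 0.628 and 0 in Pcp2-cre mice, with overlap. Of 7 terminal pathway genes, 5 had at most 3 counts in every mouse, 3 of them 0 in all mice. At this depth, levels of these terminal genes below 3 counts a mouse could not be detected. *C8g* was tested, with a log2FC of 0.14 (edgeR adjusted p = 0.801).

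Of 21 regulator genes, 13 were tested and 0 were called by edgeR or DESeq2. At an unadjusted p under 0.05, 2 were higher and 1 lower, and these also had an adjusted p of at most 0.05 at fold changes under the threshold, which 2.99% of tested genes showed upward and 4.75% downward. *Clu*, which encodes the abundant chaperone and inhibitor clusterin, had 354, 383 and 336 CPM in controls and 416, 426 and 415 CPM in Pcp2-cre mice, without overlap. Its log2FC was 0.23 (SE 0.0446, edgeR adjusted p = 0.00147). For *Vtn*, which encodes vitronectin, mean CPM was 66.8 ± 2.97 in controls and 77.5 ± 5.26 in Pcp2-cre mice (SD over 3 mice), with a log2FC of 0.21 (edgeR adjusted p = 0.0238).

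*Susd4*, which encodes a membrane complement regulator, went the other way, with 78.8, 77.3 and 77.9 CPM in controls and 60.7, 62.1 and 65.5 CPM in Pcp2-cre mice. The groups did not overlap, and the log2FC was -0.32 (SE 0.0516, edgeR adjusted p = 2.53e-04). *Cr1l*, *Cd46* and *Cd55*, whose products protect cells from C3 and C4 fragments, had log2FCs of 0.15, 0.07 and -0.26, and none passed the test.

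**Figure D3:**
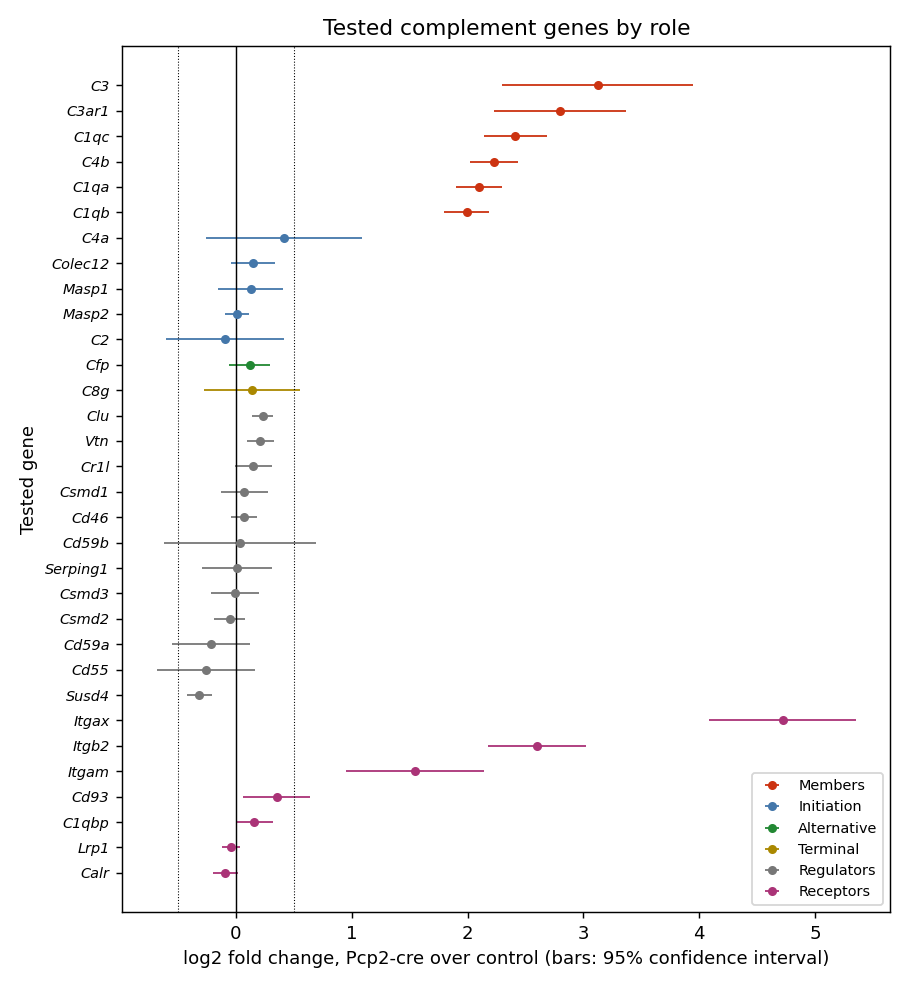
Fitted log2FC of Pcp2-cre over control for the 6 tested complement genes of the set and 26 of the 27 other tested complement genes by role, with bars for 95% confidence intervals and dotted lines at the threshold of 0.5. Points beyond the upper line with an interval clear of it are *C3*, *C3ar1*, *C1qc*, *C4b*, *C1qa*, *C1qb*, *Itgax*, *Itgb2* and *Itgam*.

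C1q-domain genes that act at synapses rather than in complement were listed beside C1q. Of these 8 genes, 4 were tested and 0 called by edgeR or DESeq2, with 1 higher at an unadjusted p under 0.05. *Cbln1* and *Cbln3*, made by granule cells, had 625 and 1207 CPM in controls and log2FCs of 0.04 and 0.01. *C1ql3* had 8.30 ± 1.99 and 11.2 ± 0.630 CPM (SD, n = 3 mice each) with a log2FC of 0.41 (edgeR adjusted p = 0.138). *C1ql1*, which climbing fibers supply to Purkinje cells, had 25, 23 and 33 counts in controls and 24, 46 and 14 counts in Pcp2-cre mice (log2FC 0.15, edgeR adjusted p = 0.847).

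Markers of the cells that make these proteins moved as well. Of 10 homeostatic microglial genes, 7 were called higher, beside 1.37% of all tested genes. *Csf1r* and *Cx3cr1* were among the 7, with log2FCs of 0.96 and 1.48. The median over the list was 1.01, and its summed level was 114 to 119 CPM in controls and 266 to 282 CPM in Pcp2-cre mice. The others, *P2ry12*, *Tmem119* and *Siglech*, had log2FCs of 0.28, 0.06 and 0.15 that did not pass the test. Of 16 pan-microglial genes, of which 9 are also in the homeostatic list, 13 were called higher. Among these, *Aif1* passed the filter through the Pcp2-cre mice alone, and *Itgam* was under the filter's level in control mice 1 and 2. The summed level of the 16 genes went from between 146 and 152 CPM to between 370 and 408 CPM.

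Per mouse, the mean log2 CPM of the C1q chains relative to the control mean was 2.07, 2.05 and 2.32 in Pcp2-cre mice 1, 2 and 3. The homeostatic microglial mean was 1.11, 0.99 and 1.12, and the pan-microglial mean 1.40, 1.20 and 1.45. The C1q mean thus exceeded the homeostatic mean by 0.96, 1.06 and 1.20 in Pcp2-cre mice, against -0.03 to 0.02 in controls. Single microglial genes had fold changes as large as C1q, *Tyrobp* and *Fcrls* with log2FCs of 2.89 and 2.89 among them. The part of microglial number in the C1q difference was not tested.

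Of 8 border macrophage genes, 5 were tested and 0 called by edgeR or DESeq2, with 0 at an unadjusted p under 0.05, and the summed level of all 8 was 12.4 to 15.1 CPM in controls and 13.8 to 18.6 CPM in Pcp2-cre mice. None of 8 monocyte and neutrophil genes passed the filter, and 4 had at most 3 counts in every mouse, *Ly6g* with 0 in all and *Ccr2* with at most 3. Their summed level was 1.49 to 3.99 CPM in controls and 1.92 to 5.53 CPM in Pcp2-cre mice.

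For *C4b*, astrocyte genes were set beside it. Its log2 CPM relative to the control mean was 2.15, 2.29 and 2.28 in Pcp2-cre mice 1, 2 and 3, and that of *Gfap*, the intermediate filament gene of reactive astrocytes, 1.83, 1.93 and 2.04. The value of *C4b* less that of *Gfap* was -0.17, -0.09 and 0.27 in controls and 0.32, 0.36 and 0.24 in Pcp2-cre mice, so it overlapped between genotypes. The mean of the 10 astrocyte and Bergmann glia genes was 0.27, 0.32 and 0.31. Of the 10, 2 were called higher, *Gfap* and *Aqp4*, beside 1.37% of all tested genes. The list median log2FC was 0.11. At any fold change 5 of the list passed adjustment upward and 2 downward, beside 2.99% and 4.75% of all tested genes. *Vim*, *Gja1* and *S100b* were higher without overlap at log2FCs of 0.41, 0.37 and 0.13 (edgeR adjusted p = 2.2e-06, 2.65e-06 and 0.0445). *Slc1a3* and *Gdf10* were lower without overlap at log2FCs of -0.22 and -0.25 (edgeR adjusted p = 9.95e-05 and 0.00424). These changes were under the fold threshold. The part of astrocytes in the *C4b* difference was not tested.

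**Figure D4:**
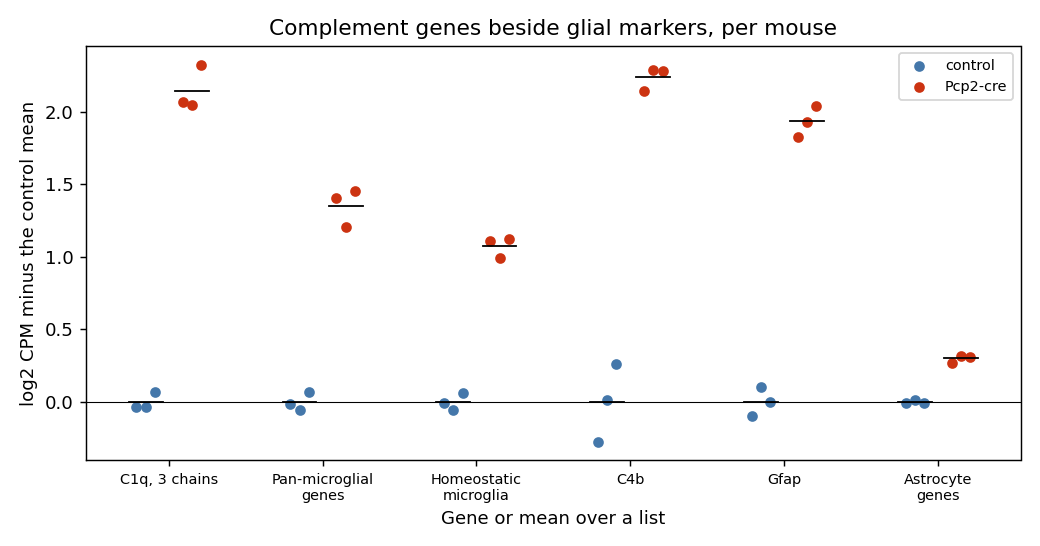
log2 CPM relative to the control mean for C1q (mean of 3 chain genes), pan-microglial genes (mean of 16), homeostatic microglial genes (mean of 10), *C4b*, *Gfap* and astrocyte genes (mean of 10), with each point 1 mouse and each bar a mean of 3 mice. C1q and *C4b* lie above 2 in every Pcp2-cre mouse, while the homeostatic microglial mean lies near 1 and the astrocyte mean near 0.3.

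The genes most like C1q across the 6 mice were found by the root mean square difference of log2 CPM relative to the control mean. This measure includes the difference between genotypes, so it does not show variation shared by mice within a genotype. The nearest 5 of the tested genes outside the 8 were *Cd48*, *Lyz2*, *Plau*, *Gfap* and *Apbb1ip*, at differences of 0.15 to 0.175. *Plau* and *Apbb1ip* had means of 0.754 and 0.903 CPM in controls, under the filter's level of 1.27 CPM. *Lyz2*, which encodes lysozyme, had 6.20 CPM in controls and 30.4 CPM in Pcp2-cre mice. *Cd48* had only 0.199 CPM in controls, under the floor of detection, and its fitted log2FC of 2.98 was above those of the C1q chains. The log2 CPM used here adds a prior count of 2, which shrinks differences at so low a level. The nearest 5 to *C4b* were *Itgb2*, *Ly86*, *Cd48*, *Lyz2* and *Gfap*, at 0.224 to 0.257.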

How the data were processed

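The authors mapped paired 150-base reads of poly A-enriched libraries with STAR to GRCm39, quantified Gencode genes with featureCounts and StringTie, and deposited raw counts for 53746 genes and, in a second table, FPKM for 55005 genes. Versions of tools and annotation, strandedness of counting and the handling of multimapping reads are not given in the sources used here. Tests on counts used edgeR 4.0.16 under R 4.3.3 (filterByExpr with min.count 10, TMM, quasi-likelihood test), with Benjamini-Hochberg adjustment over 16961 genes. A standard error is the log2 fold change divided by the square root of F. log2 CPM used a prior count of 2. The scripts were tested on simulated counts. Coordinates and overlaps came from Gencode M39 (GRCm39), and promoters from a RefSeq table (GRCm38.p6).

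The members and lists were chosen with earlier results of these data known. The genes named are the 8 complement genes, other complement genes that were called or the 3 most abundant of each role, the 5 most like C1q and *C4b*, *C4a*, *Sting1* and leading markers, of which some genes are not reported by name here. *C1s1*, *C5ar2*, *C1rb*, *Cfb*, *Cfd*, *Cr1l*, *Cd46*, *Cd55*, *Cd93*, *C2*, *C1ql1*, *Tyrobp*, *Fcrls*, *Aif1*, *Slc1a3*, *Gdf10*, *Pde1c*, *Neurod1*, *Ly6g*, *Ccr2*, *P2ry12*, *Tmem119* and *Siglech* were added after their values were seen. So were *Vim*, *Gja1* and *S100b*. No library was a copy of another, since libraries of a genotype differed beyond counting noise (chi-square per gene of 1.38 to 3.62). Alternatives were DESeq2 1.42.0, its size factors, other count filters, a term for sex, for a choroid plexus score or for the mouse number (replicate block), limma 3.58.1 on log2 FPKM with pseudocounts of 1 and 0.1, other fold thresholds and each mouse left out in turn.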

Additional observations from a re-analysis of the deposited data

How the results depend on the processing

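All 6 called complement genes kept their call and direction in every alternative that tested them. With at least 10 counts in every mouse *C3*, *C3ar1*, *Itgam* and *Itgax* were no longer tested, which left 1 of the other complement genes called higher. The log2 fold changes of *C1qa*, *C1qb*, *C1qc* and *C4b* stayed within 2.03 to 2.32, 1.93 to 2.08, 2.26 to 2.51 and 1.92 to 2.40. Those of *C3* and *C3ar1* fell to 0.55 and 0.82 on log2(FPKM + 1), where the pseudocount exceeds the control level, and to 1.83 and 2.05 with 0.1, still called. With single mice left out they ranged from 2.82 to 4.17 and from 2.61 to 2.99, *C3* reaching 4.17 without control mouse 3. *C1ra* and *C5ar1* were under the filter, so only the fit without a filter gave a value for them. The log2 ratio of mean CPM of *C5ar1* was 1.21, with 0.78 when control mouse 1 was left out and 1.91 when control mouse 2 was. That of *C1ra* was -0.16 and changed sign without control mouse 1 (0.03), without Pcp2-cre mouse 2 (0.07) and in FPKM (0.24).

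The labels do not say whether same-numbered mice were paired. Their deviations from the group means correlated at 0.041, 0.056 and 0.166. Of the same-numbered mice only the number 3 mice, both female, were each other's best match. Control mouse 1 and Pcp2-cre mouse 2, which differ in number, were also each other's best match. With so few mice these values cannot show whether pairs existed. With the mouse number as a replicate block 229 genes were called higher and 319 lower, against 233 and 304, and all 6 complement genes kept their call. Genes called higher numbered 150 with DESeq2, 126 and 144 with limma on log2 FPKM with pseudocounts of 1 and 0.1, 507 at any fold change and 142 with a log2 threshold of 1. Genes called lower numbered 231 with DESeq2 and 155 and 167 with limma on FPKM. They numbered 805 at any fold change and 94 with a log2 threshold of 1. With the choroid plexus score in the model 188 genes were called higher and 232 lower. At any fold change 5 other complement genes were higher and 1 lower, and *Cd93* was called higher only without control mouse 3. C1q exceeded the homeostatic microglial mean by 1.07 in log2 CPM, by 0.79 against the pan-microglial list and by 1.28 on log2(FPKM + 1).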

Other observations

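Other cell type lists were compared in the same 6 mice. Of 10 Purkinje cell genes, 8 were called lower, beside 1.79% of all tested genes, with a median log2 fold change of -0.77. Of 6 genes of oligodendrocytes, which can also make C4, 0 were called by edgeR or DESeq2, all 6 were higher at an unadjusted p under 0.05 (8.36% of all tested genes) and 4 passed adjustment below the fold threshold, where 2.99% of all tested genes were higher at any fold change, the median log2 fold change being 0.19. Of 6 endothelial genes 0 were called by edgeR or DESeq2, with 1 at an unadjusted p under 0.05. Of 9 granule cell genes 0 were called by either tool, with 3 higher at an unadjusted p under 0.05, of which *Pde1c* and *Neurod1* passed adjustment at log2 fold changes of 0.30 and 0.17. Red blood cell genes gave 0 calls among 4 tested with either tool and 0 at an unadjusted p under 0.05, with a summed level over the 5 listed of 14.3 to 63.6 CPM in controls and 5.92 to 45.8 CPM in Pcp2-cre mice. Of 7 choroid plexus genes tested, 6 were called lower by edgeR, beside 1.79% of all tested genes, and 1 by DESeq2. The summed level of all 10 listed was 35.5 to 1286 CPM in controls and 26.1 to 92.9 CPM in Pcp2-cre mice.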
